A study of Rattus norvegicus with 43 samples.

Results

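Cytochrome P450 families 1 to 4 were described in rat kidney cortex, as the genes of both deposited FPKM tables with a protein-coding biotype and a symbol that begins Cyp1, Cyp2, Cyp3 or Cyp4 followed by a letter. The rule selected 53 of the 32545 genes that the tables share. They were 8 Cyp2c genes, 4 Cyp4a genes, 3 Cyp1 genes, 4 Cyp3 genes, 22 other Cyp2 genes and 12 other Cyp4 genes. FPKM is a fragment count scaled to transcript length and to a library size, so levels can be set side by side between genes. Of the 53 genes, 25 had 1 FPKM or more in 5 or more libraries within either table and entered the tests, 24 of them in the normal salt table and all 25 in the high salt table. A further 26 genes stayed below 1 FPKM in every library, and 3 of these (Cyp2b21, Cyp2c12 and Cyp2c7) were at 0 throughout. The remaining 2 genes, Cyp4f17 and Cyp4f37, reached 1.01 and 1.301 FPKM at most and lay just outside the filter, while Cyp2f4, Cyp1b1 and Cyp3a9 lay just inside it.

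P450 enzymes of these families are haem proteins of the endoplasmic reticulum that insert an oxygen atom into lipids, steroids and foreign compounds, using electrons from NADPH supplied by the reductase Por. In the kidney, Cyp4a and Cyp4f enzymes hydroxylate arachidonic acid at its tail to give 20-HETE, which constricts renal vessels and inhibits sodium transport in the tubule. Cyp2c and Cyp2j epoxygenases turn the same fatty acid into epoxyeicosatrienoic acids, which dilate vessels and inhibit sodium channels of the collecting duct. In the rat, Cyp2c23 is the main renal epoxygenase, and several Cyp2c and Cyp2d forms were first studied in liver, where Cyp2c11 and Cyp2c13 are male-predominant.

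The study used male Dahl salt-sensitive rats, of the SS strain or labelled SSper1-/- (called Per1KO here), whose name marks a deletion of the clock gene Per1 in the SS strain. All were kept for 3 weeks on a diet with 4% NaCl (high salt) or 0.4% NaCl (normal salt), and cortex was taken at 2am, during the night-time active phase, or at 2pm, during the day-time inactive phase. The high salt groups held 5 libraries each, and the normal salt groups held 5 Per1KO and 6 SS libraries at 2am and 6 Per1KO and 6 SS libraries at 2pm. The labels do not say whether each library is a separate animal, so p-values measure the spread between these libraries. Per1 FPKM itself did not pass a test between the labels: it averaged 10.6 ± 1.34 in libraries labelled Per1KO and 8.43 ± 2.79 in SS libraries on high salt at 2am (SD, n = 5 each; log2 difference 0.35 ± 0.24, adjusted p = 0.392). The other 3 pairs had adjusted p-values from 0.446 to 0.763. A gene-level value does not show which part of a transcript was read, so the groups are named by their labels only.

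Library depth was 24.0 to 41.6 M fragments assigned to genes in the normal salt table and 15.3 to 27.6 M (M for mega) in the high salt table. The library size behind the FPKM was 0.882 to 1.158 times the assigned fragments. On high salt at 2pm it was 1.023 to 1.158 times in Per1KO libraries and 0.882 to 0.972 times in SS libraries. The library numbers form runs, called series here, that overlap with the groups. On normal salt at 2pm the Per1KO and SS libraries came from separate series. Every Per1KO library at 2am, on both diets, belonged to one series and every SS library to another. On high salt at 2pm both labels were split over the same pair of series. At 2am and on normal salt, label and series therefore cannot be told apart. No series held libraries of both times, so time and series cannot be told apart in any time comparison or label by time interaction. The label by diet interaction at 2pm holds the series difference of normal salt as well. Proximal tubule markers were abundant everywhere, with summed FPKM of 3004 to 14420 over 16 genes. Liver is the main site of many of these enzymes, and its marker sum was 7.82 to 71.0 FPKM over 8 genes. Alb (albumin) had group means of 0.0779 to 0.407 FPKM, and Ttr or Ahsg was below 0.1 FPKM in every library of 6 of the 8 groups. Both were so in Per1KO on high salt at 2pm, where the sum was 35.7 to 57.8 FPKM, so other listed genes carried it. The median liver sum on high salt was 48.9 FPKM in Per1KO and 32.1 FPKM in SS at 2pm, and 38.2 and 18.7 FPKM at 2am. On normal salt it was 20.9 FPKM in Per1KO and 17.4 FPKM in SS at 2pm, and 20.3 and 15.0 FPKM at 2am. The adrenal marker sum was 1.65 to 7.11 FPKM over 6 genes. The libraries that stood apart were SS normal salt 2pm replicate 5, SS high salt 2pm replicates 4 and 5, Per1KO high salt 2am replicate 1, and Per1KO normal salt 2pm replicate 1, whose fat markers summed to 320.8 FPKM. Of the differences described, those whose call changed without SS high salt 2pm replicates 4 and 5, or without the 2 normal salt libraries, are given both ways, in alternatives chosen after seeing the data.

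Cyp4a and Cyp2c genes made up 58.7% and 28.1% of the summed P450 FPKM over all libraries. Cyp4a2 alone gave 47.6% and Cyp2c23 gave 26.6%, followed by Cyp4a8 (6.02%), Cyp2e1 (4.25%), a second locus that carries the symbol Cyp4a2 (3.93%), Cyp2d2 (3.59%), Cyp4f1 (2.38%) and Cyp2c13 (1.11%). Mean Cyp4a2 levels ran from 1614 to 2248 FPKM over the 8 groups and Cyp2c23 from 619 to 1380.2 FPKM, so Cyp4a2 led and Cyp2c23 followed in every group. Below them the middle ranks changed places. Cyp2e1 averaged 239 ± 30.5 FPKM in SS cortex on normal salt at 2am, above Cyp4a8 at 210.2 ± 49.9 FPKM (SD, n = 6). It lay below Cyp4a8 in the SS group at 2pm, where Cyp2e1 averaged 121 ± 48.9 FPKM and Cyp4a8 188 ± 23.4 FPKM (SD, n = 6). Cyp3 genes gave 0.0207% and Cyp1 genes 0.207% of the sum.

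**Figure D1:**
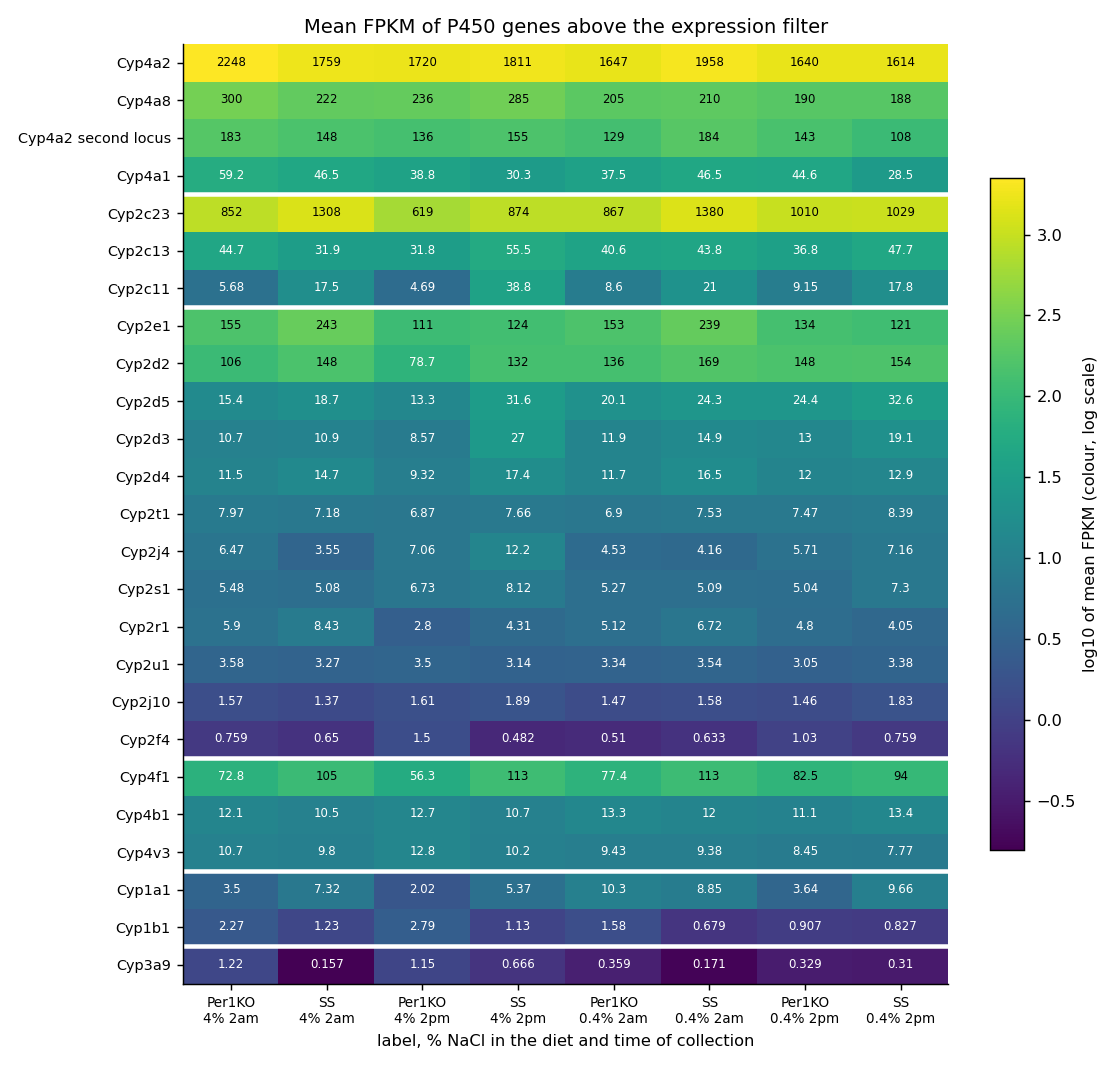
Mean FPKM of the 25 P450 genes above the expression filter (down the page, in blocks Cyp4a, Cyp2c, other Cyp2, other Cyp4, Cyp1 and Cyp3) in the 8 groups. Colour is on a log10 scale and the number in each cell is the mean FPKM. Cyp4a2 (1614 to 2248 FPKM) and Cyp2c23 (619 to 1380.2 FPKM) lead in every group.

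Each comparison was tested with limma on log2(FPKM + 1), with the Benjamini-Hochberg adjusted p taken over all genes of the table and a threshold of 0.05. A log2 difference on this scale understates the change of low genes. Between the labels on high salt at 2pm, 9 of 25 P450 genes (36%) passed, 3 higher and 6 lower in Per1KO, where 29.8% of all genes passed (14.2% higher and 15.7% lower). The median P450 log2 difference there was -0.23, against 0.003 over all genes. Cyp2f4, among the 3 higher, would have missed the filter without the Per1KO libraries of this comparison. On high salt at 2am 1 of 25 passed, against 8.95% of all genes (4.3% higher and 4.64% lower), with a median of 0.12 against -0.007. On normal salt at 2am 1 of 24 passed, against 4.18% of all genes (3.19% higher and 0.99% lower), with a median of -0.14 against -0.021. On normal salt at 2pm 0 of 24 passed in limma and in limma voom, against 0.372% of all genes in limma (0.253% higher and 0.119% lower). An unadjusted p below 0.05 was reached by 5 of the 24 and by 2020 of all 13436 genes.

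Between 2am and 2pm, 5 of 24 P450 genes (20.8%) rose at 2am in SS cortex on normal salt, where 26.3% of all genes passed (14.3% higher and 12% lower). In Per1KO cortex on normal salt 1 of 24 passed, against 3.11% of all genes (1.66% higher and 1.45% lower at 2am). That gene, Cyp2f4, was higher at 2pm and would have missed the filter without the Per1KO 2pm libraries. In SS cortex on high salt 2 of 25 passed, 1 in each direction, against 5.44% of all genes (2.85% higher and 2.59% lower). In Per1KO cortex on high salt 0 of 25 passed in limma and in voom, against 0.262% of all genes in limma (0.181% higher and 0.0805% lower). An unadjusted p below 0.05 was reached by 6 of the 25 and by 2374 of all 14899 genes. The label by time interaction passed for 1 of 24 genes on normal salt, against 2.81% of all genes (1.49% in the positive and 1.32% in the negative direction). It passed for 0 of 25 in limma and in voom on high salt, against 0.101% of all genes (0.047% positive and 0.0537% negative), with 8 of the 25 and 2035 of all genes at an unadjusted p below 0.05. In none of these comparisons is the P450 share read as a property of the family, since 36% stands beside 29.8% and 20.8% beside 26.3% of all genes.

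**Figure D2:**
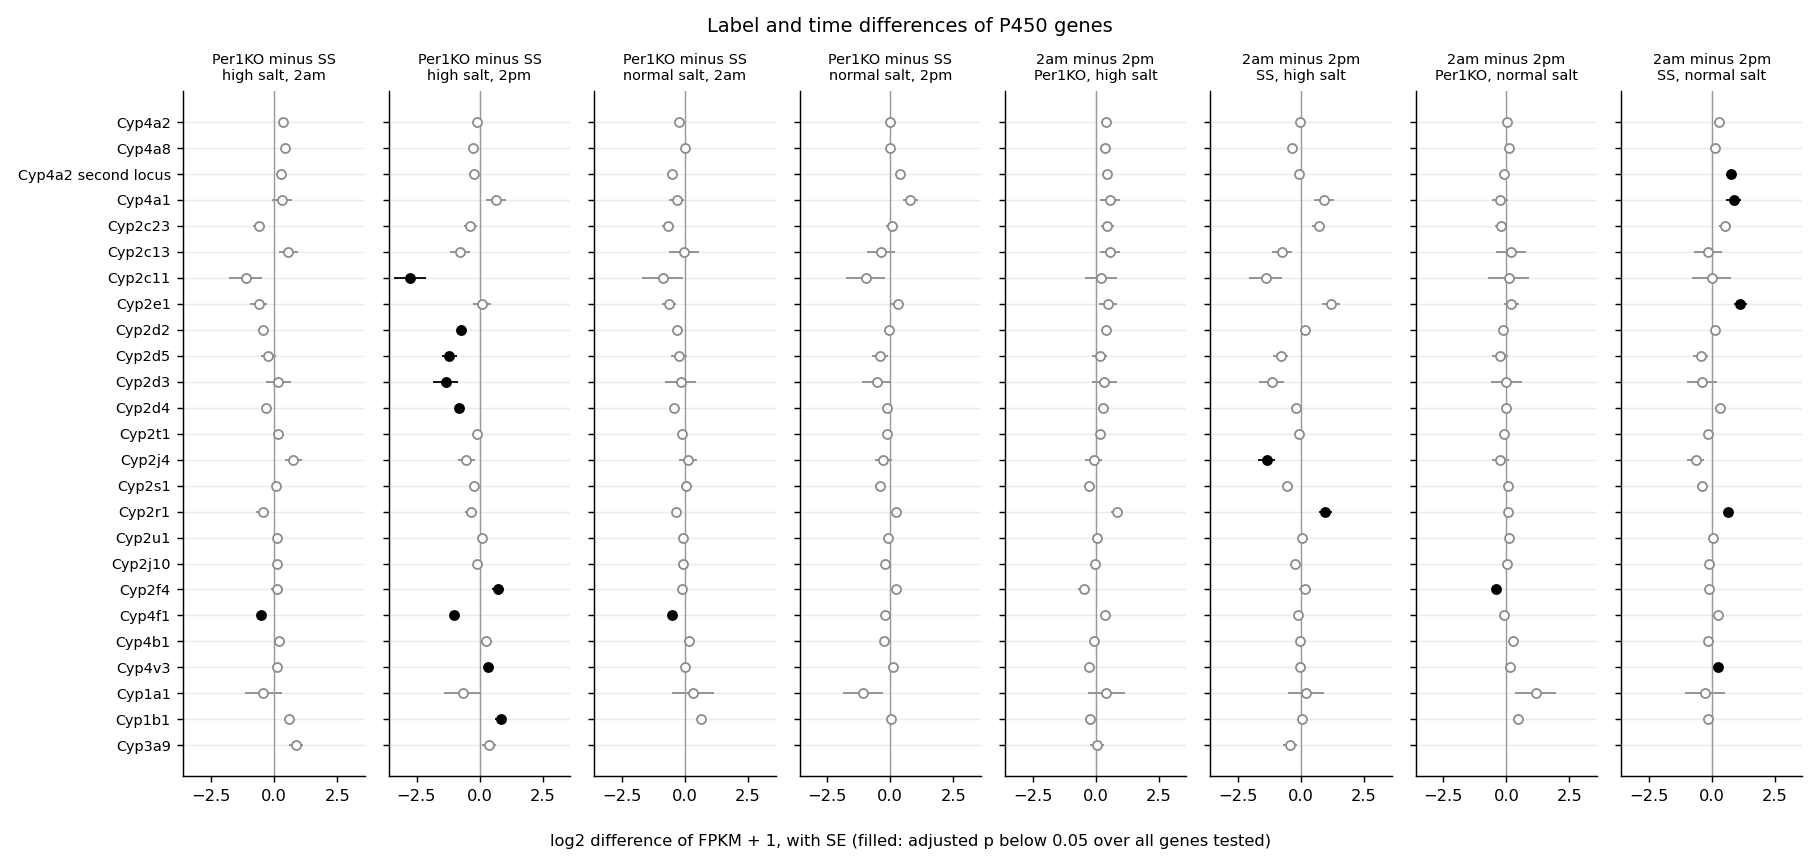
Log2 differences of FPKM + 1 (x axis) with their SE for the P450 genes above the filter (down the page) in the 4 label comparisons and the 4 time comparisons. Filled points have an adjusted p below 0.05 over all genes tested. The panel for Per1KO minus SS on high salt at 2pm has more filled points (9) than any other, and Cyp4f1 is filled on the negative side in 3 of the 4 label panels.

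Among the 4 Cyp4a genes, all on chromosome 5 in the deposited annotation, no label comparison gave a gene that passed, while 2 rose at 2am in SS cortex on normal salt. Cyp4a2 (ENSRNOG00000030154), the most abundant ω-hydroxylase gene here, had 1809, 2284, 2481, 2509 and 2160.2 FPKM in the libraries labelled Per1KO on high salt at 2am, against 1960.2, 1661, 1888, 1553 and 1733 FPKM in SS libraries. It averaged 2248 ± 285 FPKM in Per1KO and 1759 ± 166 FPKM in SS (SD, n = 5 each). The groups overlapped and the difference did not pass (log2 difference 0.35 ± 0.13, adjusted p = 0.107). It passed without Per1KO replicate 1 (adjusted p = 0.0448) and in voom on recovered fragments (log2 difference 0.51, adjusted p = 0.0195). Voom took the recovered fragment total as the library size. The size behind the FPKM was 1.036 to 1.09 times that total in these Per1KO libraries and 0.899 to 1.018 times in these SS libraries. The voom difference therefore includes this change of scaling. Alternatives gave Cyp4a2 adjusted p-values from 0.0195 to 0.275. The 250 bases before the RefSeq start of Cyp4a2 (GRCr8, chr5:134170909-134171158, minus strand) are shown because this gene carries the largest share of the family's RNA. The window was matched by symbol only. Another locus carries the same symbol, so the match of the window to the locus described here is not established. Capitals mark AGGTCA, the core hexamer bound by nuclear receptors such as PPAR alpha, a known regulator of Cyp4a genes.
Cyp4a2: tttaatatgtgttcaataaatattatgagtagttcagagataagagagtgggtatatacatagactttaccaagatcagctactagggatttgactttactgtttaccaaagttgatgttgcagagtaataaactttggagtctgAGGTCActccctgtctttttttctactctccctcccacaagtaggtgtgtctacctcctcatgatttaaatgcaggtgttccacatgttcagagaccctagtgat
That motif, on either strand, was in 14.1% of 33469 RefSeq promoter windows and in 6 of the 21 windows found for the 25 genes (Cyp2c11, Cyp2e1, Cyp2r1, Cyp2s1, Cyp2u1 and Cyp4a2).

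Cyp4a8 (an ω-hydroxylase form found in rat kidney) followed the same order on high salt at 2am, with 270.0, 330.2, 296, 304 and 298 FPKM in Per1KO libraries, against 186, 244, 218, 236 and 227 FPKM in SS libraries. Every Per1KO library lay above every SS library. The summed level of the 4 Cyp4a genes was 2790.0 ± 350.0 FPKM in Per1KO and 2176 ± 166 FPKM in SS (SD, n = 5 each). The Cyp4a8 difference missed the threshold (log2 difference 0.43 ± 0.14, adjusted p = 0.0539). It passed without Per1KO replicate 1 (adjusted p = 0.0442), in voom (0.60, adjusted p = 0.0171) and in a fit of these 2 groups alone (adjusted p = 0.0128). Alternatives gave Cyp4a8 adjusted p-values from 0.0128 to 0.163. Its sign at 2pm on high salt was the other way, with 236 ± 52.9 FPKM in Per1KO and 285 ± 52.9 FPKM in SS (SD, n = 5 each; log2 difference -0.28 ± 0.14, adjusted p = 0.137). That difference passed without Per1KO replicate 2 (adjusted p = 0.0254) or without SS replicate 1 (adjusted p = 0.0401). Alternatives gave Cyp4a8 adjusted p-values from 0.0254 to 0.836. The label by time interaction of Cyp4a8 on high salt did not pass (log2 difference 0.71 ± 0.19, adjusted p = 0.133), except without SS 2pm replicate 1 (adjusted p = 0.0394).

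The second Cyp4a2 locus (ENSRNOG00000009741) rose at night in SS cortex on normal salt, with 148 to 205 FPKM with a median of 189.7 at 2am, against 86.1 to 129 FPKM with a median of 108 at 2pm. The groups did not overlap (log2 difference 0.78 ± 0.15, adjusted p = 0.00124). In Per1KO cortex on the same diet it had 135, 123, 113, 127 and 148 FPKM at 2am, against 90.9 to 200.3 FPKM with a median of 145 at 2pm. There the wide 2pm range enclosed all 2am libraries. The difference between these time responses passed (log2 difference -0.87 ± 0.22, adjusted p = 0.038), with n = 5 and 6 for Per1KO and 6 and 6 for SS. It was the single P450 gene with such an interaction. The call failed without any 1 of 14 of the 23 libraries (Per1KO 2am replicates 1 to 4, Per1KO 2pm replicates 1, 3 and 6, SS 2am replicates 1, 2, 3, 5 and 6, and SS 2pm replicates 2 and 4; adjusted p up to 0.0774). With no expression filter it failed too (adjusted p = 0.0663). On normal salt at 2am the locus averaged 129 ± 13.3 FPKM in Per1KO (SD, n = 5) and 184 ± 20.5 FPKM in SS (SD, n = 6). Every Per1KO library was below every SS library, by a narrow margin for Per1KO replicate 5 (148.24 FPKM) and SS replicate 4 (148.48 FPKM). The label difference did not pass (log2 difference -0.51 ± 0.16, adjusted p = 0.0753). It passed without SS 2am replicate 4 (adjusted p = 0.0445) and in a fit of the 2 groups alone (adjusted p = 0.0058). Alternatives gave Cyp4a2 second locus adjusted p-values from 0.0058 to 0.19.

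Cyp4a1, the founding peroxisome proliferator-inducible form, also rose at 2am in SS cortex on normal salt, with 37.2 to 56.3 FPKM with a median of 45.2 at 2am, against 6.56 to 47.9 FPKM with a median of 28.7 at 2pm. The ranges overlapped (log2 difference 0.88 ± 0.30, adjusted p = 0.0354). The call was lost without any 1 of SS 2am replicates 2 to 5 or SS 2pm replicates 2 and 4 (adjusted p up to 0.0695), with no filter (0.0642) and in a fit of the 2 groups alone (0.111). The lowest 2pm value belonged to SS replicate 5, and without that library the difference was 0.52 (adjusted p = 0.0449). Alternatives gave Cyp4a1 adjusted p-values from 0.0142 to 0.111. In SS cortex on high salt at 2pm the 5 libraries ran from 8.97 to 62.7 FPKM, with replicates 4 and 5 lowest, against 26.0 to 55.4 FPKM in Per1KO libraries. The label difference in Cyp4a1 there did not pass (log2 difference 0.64 ± 0.40, adjusted p = 0.244). Its sign turned to -0.16 without SS replicates 4 and 5 and was 0.31 without replicate 4 alone, and it passed without SS replicate 1 (0.98, adjusted p = 0.0478). Alternatives gave Cyp4a1 adjusted p-values from 0.0478 to 0.705. Reads of such close relatives can be shared or split between loci by the counting, so the division of signal among Cyp4a genes is uncertain.

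**Figure D3:**
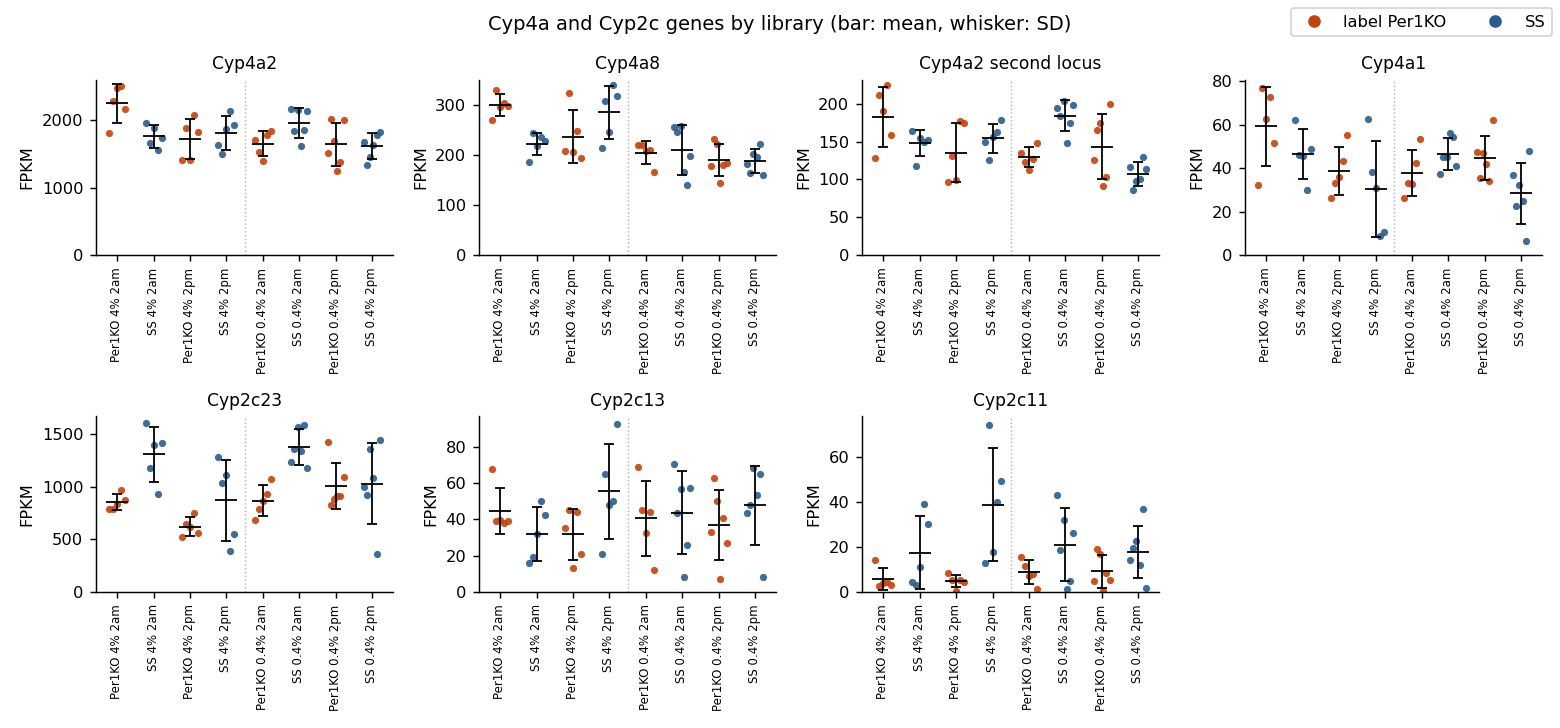
FPKM of the 4 Cyp4a and 3 Cyp2c genes above the filter, 1 point per library, with orange for libraries labelled Per1KO and blue for SS, the mean as a bar and the SD as a whisker. Groups are given by label, % NaCl and time. In the Cyp2c23 panel the SS 2am groups have the highest means on both diets. In the Cyp2c11 panel the SS libraries on high salt at 2pm spread from 12.8 to 74.5 FPKM, above all Per1KO libraries of that diet and time.

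Of the 8 Cyp2c genes, Cyp2c23, Cyp2c13 and Cyp2c11 entered the tests. Of these 1 passed: Cyp2c11 fell in Per1KO cortex on high salt at 2pm. Cyp2c23, the main arachidonate epoxygenase, had 686, 786, 861, 927 and 1075 FPKM in Per1KO libraries on normal salt at 2am, against 1176 to 1591 FPKM with a median of 1350.1 in SS libraries. Every Per1KO library was below every SS library. The means were 867 ± 147 FPKM in Per1KO (SD, n = 5) and 1380.2 ± 171 FPKM in SS (SD, n = 6). The difference did not pass in the fit that pools the spread of 4 groups (log2 difference -0.68 ± 0.24, adjusted p = 0.118). It passed in a fit of these 2 groups alone (adjusted p = 0.00562) and without SS 2pm replicate 5 and Per1KO 2pm replicate 1 (adjusted p = 0.00415), both of which belong to other groups of the same fit. Leaving out any 1 library of the 2 groups gave adjusted p-values from 0.118 to 0.239. The Cyp2c sum was 770.2 to 1088 FPKM in Per1KO libraries, against 1259 to 1664 FPKM in SS libraries of that diet and time.

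With high salt at 2am, Cyp2c23 had 791, 788, 833, 973 and 876 FPKM in Per1KO libraries, against 1608, 1184, 1399, 929 and 1421 FPKM in SS libraries. The ranges overlapped through SS replicate 4 (log2 difference -0.60 ± 0.25, adjusted p = 0.146). The difference passed in a fit of the 2 groups alone (adjusted p = 0.0193). Alternatives gave Cyp2c23 adjusted p-values from 0.0193 to 0.318. At 2pm on high salt the values were 521, 649, 614, 753 and 556 FPKM in Per1KO libraries, against 1284, 1039, 1112, 387 and 545 FPKM in SS libraries. SS replicates 1 to 3 lay above every Per1KO library and replicates 4 and 5 lay among or below them. The difference did not pass (log2 difference -0.37 ± 0.25, adjusted p = 0.287). It passed without SS replicate 4 (-0.63, adjusted p = 0.0244) and without replicates 4 and 5 together (-0.89, adjusted p = 0.000581). It also passed within the library series that holds Per1KO replicates 1 to 3 and SS replicates 1 and 2 (-0.96, adjusted p = 0.0226). Within the other series it was 0.07. Alternatives gave Cyp2c23 adjusted p-values from 0.000581 to 0.956. The Cyp2c23 means on normal salt at 2pm were 1009.5 ± 221 FPKM in Per1KO and 1029 ± 388 FPKM in SS (SD, n = 6 each; log2 difference 0.071 ± 0.23, adjusted p = 0.899).

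The time difference of Cyp2c23 in SS cortex did not pass on normal salt (log2 difference 0.54 ± 0.23, adjusted p = 0.0904) or on high salt (log2 difference 0.70 ± 0.25, adjusted p = 0.0981). On normal salt it passed without SS 2pm replicate 3 (adjusted p = 0.0458) or replicate 6 (0.0472), and on high salt without SS 2pm replicate 1 (0.0226). On normal salt it was 0.26 without SS 2pm replicate 5 (adjusted p = 0.183), and on high salt 0.44 without SS 2pm replicate 4 (0.249) and 0.17 without replicates 4 and 5 (0.673). Alternatives gave Cyp2c23 adjusted p-values from 0.0458 to 0.2 on normal salt and from 0.0226 to 0.673 on high salt. Its label by time interaction on normal salt was -0.75 (adjusted p = 0.189).

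Cyp2c11, a testosterone hydroxylase and epoxygenase known from male rat liver, had 8.12, 5.30, 0.503, 5.17 and 4.36 FPKM in Per1KO libraries on high salt at 2pm, against 12.8, 74.5, 17.6, 39.8 and 49.5 FPKM in SS libraries. The groups did not overlap. The means of 4.69 ± 2.74 FPKM in Per1KO and 38.8 ± 25.1 FPKM in SS (SD, n = 5 each) differed beyond the spread (log2 difference -2.75 ± 0.65, adjusted p = 0.0042). The call held when any 1 library was left out (log2 difference -3.07 to -2.33). It did not pass within either library series alone, where the differences were -2.87 and -2.55 (adjusted p = 0.0945 and 0.133). Cyp2c11 at 2am on the same diet had 14.3, 2.73, 3.97, 4.37 and 2.98 FPKM in Per1KO libraries, against 4.46, 2.88, 10.8, 39.1 and 30.0 FPKM in SS libraries. The ranges overlapped (log2 difference -1.14 ± 0.65, adjusted p = 0.299). Cyp2c13, a related steroid hydroxylase, averaged 31.8 ± 14.2 FPKM in Per1KO and 55.5 ± 26.3 FPKM in SS on high salt at 2pm (SD, n = 5 each; log2 difference -0.77 ± 0.39, adjusted p = 0.143). It passed there without SS replicate 1 (-1.08, adjusted p = 0.0311). Alternatives gave Cyp2c13 adjusted p-values from 0.0311 to 0.705. Summed over the 8 Cyp2c genes, the level was 655 ± 97.3 FPKM in Per1KO and 968 ± 364 FPKM in SS on high salt at 2pm (SD, n = 5 each). At 2am it was 903 ± 70.3 FPKM in Per1KO and 1358 ± 244 FPKM in SS (SD, n = 5 each).

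Cyp4f1, which encodes a leukotriene B4 and arachidonate ω-hydroxylase on chromosome 7, passed in more label comparisons than any other P450 gene. It was lower in Per1KO cortex in 3 of 4. Its values on high salt at 2pm were 50.5, 58.2, 51.5, 68.2 and 53.4 FPKM in Per1KO libraries, against 97.2, 129, 105, 122 and 114 FPKM in SS libraries. The groups lay far apart, with means of 56.3 ± 7.24 FPKM in Per1KO and 113 ± 12.6 FPKM in SS (SD, n = 5 each; log2 difference -0.997 ± 0.11, adjusted p = 2.32e-05). The 2am high salt values of Cyp4f1 were 83.2, 66.8, 74.0, 76.6 and 63.5 FPKM in Per1KO libraries, against 116, 82.5, 102, 107 and 118 FPKM in SS libraries. SS replicate 2 lay within the Per1KO range (log2 difference -0.52 ± 0.11, adjusted p = 0.00838). Normal salt values at 2am were 82.2, 80.5, 66.7, 81.3 and 76.3 FPKM in Per1KO libraries, against 87.9 to 138 FPKM with a median of 111 in SS libraries. The groups did not overlap (log2 difference -0.53 ± 0.12, adjusted p = 0.0213). The call was lost without SS replicate 1 (adjusted p = 0.0519) or 3 (0.0629) or Per1KO replicate 2 (0.0559) or 3 (0.077). Alternatives gave Cyp4f1 adjusted p-values from 0.00761 to 0.077. At 2pm on normal salt the Cyp4f1 means were 82.5 ± 14.4 FPKM in Per1KO and 94.0 ± 14.3 FPKM in SS (SD, n = 6 each; log2 difference -0.19 ± 0.12, adjusted p = 0.436).

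The label difference in Cyp4f1 at 2pm was larger on high salt than on normal salt by the label by diet interaction (log2 difference -0.80 ± 0.17, adjusted p = 0.00105). All 22 fits that left out 1 library kept that call. Of the 25 P450 genes, 7 passed between the labels on high salt at 2pm within the series of Per1KO replicates 1 to 3 and SS replicates 1 and 2, among them Cyp4f1, Cyp2d2 and Cyp2d4, with 2348 of all genes. Within the series of Per1KO replicates 4 and 5 and SS replicates 3 to 5, 1 gene passed among all genes and it was no P450 gene. Cyp4f1 differed there by -0.90 (adjusted p = 0.133). With the series as a term in the fit, 6 P450 genes and 2143 of all genes passed. The promoter window of Cyp4f1 (GRCr8, chr7:12672554-12672803, minus strand) is shown as that of the gene with the most repeated difference, with capitals for GTTAAT, a hexamer searched in all windows, in either direction.
Cyp4f1: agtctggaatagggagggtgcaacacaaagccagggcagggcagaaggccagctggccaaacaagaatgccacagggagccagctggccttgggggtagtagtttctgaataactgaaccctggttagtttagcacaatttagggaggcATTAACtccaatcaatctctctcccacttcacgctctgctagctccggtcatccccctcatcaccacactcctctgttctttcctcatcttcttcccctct
GTTAAT on either strand was in 6.45% of all windows and in 2 of the 21 P450 windows (Cyp2d2 and Cyp4f1).

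Cyp4v3 and Cyp4b1 were the other Cyp4 genes above the filter. Cyp4v3, a fatty acid hydroxylase, averaged 12.8 ± 0.849 FPKM in Per1KO and 10.2 ± 2.799 FPKM in SS on high salt at 2pm (SD, n = 5 each; log2 difference 0.33 ± 0.12, adjusted p = 0.0499). That call was lost in 8 of the 10 fits that left out 1 library (all 5 Per1KO replicates and SS replicates 1 to 3; adjusted p up to 0.136). It was also lost with a pseudocount of 0.1 FPKM (0.0504), with no filter (0.0771), in a fit of the 2 groups alone (0.14), with the series as a term (0.0827) and within the series of Per1KO replicates 4 and 5 (0.17, adjusted p = 0.72). Alternatives gave Cyp4v3 adjusted p-values from 0.000516 to 0.72. Cyp4v3 rose at 2am in SS cortex on normal salt, with 9.38 ± 0.787 FPKM at 2am and 7.77 ± 0.876 FPKM at 2pm (SD, n = 6 each; log2 difference 0.25 ± 0.071, adjusted p = 0.015). This held without any 1 library and was lost in voom (adjusted p = 0.0797) and in a fit of these 2 groups alone (0.0535). Cyp4b1, which bioactivates protoxins in other tissues, showed a label by diet interaction at 2pm (log2 difference 0.49 ± 0.17, adjusted p = 0.0286). It averaged 12.7 ± 1.24 FPKM in Per1KO and 10.7 ± 1.49 FPKM in SS on high salt (SD, n = 5 each). On normal salt it averaged 11.1 ± 1.69 FPKM in Per1KO and 13.4 ± 1.79 FPKM in SS (SD, n = 6 each). That call was lost without Per1KO normal salt replicate 1 (adjusted p = 0.0687), SS normal salt replicate 2 (0.0533) or 4 (0.051), Per1KO high salt replicate 3 (0.055) or SS high salt replicate 5 (0.0578), and without SS high salt replicates 4 and 5 together (0.40, adjusted p = 0.0811). Alternatives gave Cyp4b1 adjusted p-values from 0.0118 to 0.0811.

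The 4 Cyp2d genes, all above the filter and all on chromosome 7, which encode drug and amine oxidases, fell in Per1KO cortex on high salt at 2pm. Their summed level was 83.7 to 134 FPKM in Per1KO libraries, against 188 to 256 FPKM in SS libraries. The means were 110 ± 18.6 FPKM in Per1KO and 208 ± 29.0 FPKM in SS (SD, n = 5 each). Cyp2d2, the most abundant, had 71.6, 81.2, 65.0, 95.1 and 80.4 FPKM in Per1KO libraries, against 152, 174, 127, 90.5 and 118 FPKM in SS libraries. SS replicate 4 lay within the Per1KO range (log2 difference -0.72 ± 0.17, adjusted p = 0.00366). Cyp2d4, the form known from brain, had 7.91, 10.9, 8.199, 11.2 and 8.43 FPKM in Per1KO libraries, against 14.4, 24.6, 14.8, 16.7 and 16.7 FPKM in SS libraries. These did not overlap (log2 difference -0.82 ± 0.14, adjusted p = 0.000375). Cyp2d5 had 15.8, 14.1, 6.81, 15.2 and 14.8 FPKM in Per1KO libraries, against 19.5, 36.0, 29.3, 35.0 and 38.1 FPKM in SS libraries. These groups were also apart (log2 difference -1.20 ± 0.30, adjusted p = 0.00591). The calls of Cyp2d2, Cyp2d4 and Cyp2d5 held without any 1 library. Within the series of Per1KO replicates 4 and 5 and SS replicates 3 to 5 the differences were -0.33, -0.67 and -1.13 (adjusted p = 0.435, 0.198 and 0.133).

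Cyp2d3 was more variable, with 8.42, 11.5, 3.64, 12.9 and 6.37 FPKM in Per1KO libraries, against 4.86, 21.6, 20.8, 45.7 and 42.3 FPKM in SS libraries. SS replicate 1 was below most Per1KO libraries (log2 difference -1.34 ± 0.49, adjusted p = 0.0466). The call was lost without any 1 of Per1KO replicates 1, 2, 3 and 5 or SS replicates 2 to 5 (adjusted p 0.0505 to 0.128) and without SS replicates 4 and 5 together (-0.67, adjusted p = 0.321). It was also lost with a pseudocount of 0.1 FPKM (0.0526), with no filter (0.08), in voom (0.0891), in a fit of the 2 groups alone (0.102), with the series as a term (0.126) and within either series (0.635 and 0.195). Alternatives gave Cyp2d3 adjusted p-values from 0.00326 to 0.635. Cyp2d2 and Cyp2d4 also passed the label by diet interaction at 2pm (log2 difference -0.66 ± 0.19, adjusted p = 0.013 for Cyp2d2; log2 difference -0.70 ± 0.20, adjusted p = 0.012 for Cyp2d4). Both held in all 22 fits without 1 library. At 2am on high salt their differences of -0.46 and -0.33 did not pass (adjusted p = 0.0866 and 0.148). That of Cyp2d2 passed without Per1KO replicate 1 (0.0358) or SS replicate 2 (0.0371). For normal salt at 2am, differences of -0.31 for Cyp2d2 and -0.45 for Cyp2d4 did not pass (adjusted p = 0.109 and 0.0854) unless SS replicate 4 was left out (0.0389 and 0.0323) or the 2 groups were fitted alone (0.0456 and 0.0234).

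The promoter windows of Cyp2d3 (GRCr8, chr7:115802143-115802392, minus strand) and Cyp2d5 (chr7:115784488-115784737, minus strand) are shown because these genes moved together from library to library. Capitals mark the longest run that both windows share exactly, 112 bases.
Cyp2d3: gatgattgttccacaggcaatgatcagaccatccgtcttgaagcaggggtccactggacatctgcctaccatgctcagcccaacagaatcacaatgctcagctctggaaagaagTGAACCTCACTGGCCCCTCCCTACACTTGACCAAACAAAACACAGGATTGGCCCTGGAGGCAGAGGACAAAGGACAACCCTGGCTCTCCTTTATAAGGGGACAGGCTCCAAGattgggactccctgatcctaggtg
Cyp2d5: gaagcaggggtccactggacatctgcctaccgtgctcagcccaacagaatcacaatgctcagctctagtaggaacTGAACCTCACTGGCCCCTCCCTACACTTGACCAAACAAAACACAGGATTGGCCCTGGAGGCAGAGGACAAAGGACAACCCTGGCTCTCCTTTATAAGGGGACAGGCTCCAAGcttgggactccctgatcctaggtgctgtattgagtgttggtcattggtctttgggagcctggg
The run holds TATAAA on the opposite strand, a motif found in 12.9% of all windows and in 5 of the 21 P450 windows (Cyp2c11, Cyp2c13, Cyp2d3, Cyp2d5 and Cyp2e1). Copies this close can also share reads, so how the Cyp2d signal divides between Cyp2d3 and Cyp2d5 is uncertain.

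**Figure D4:**
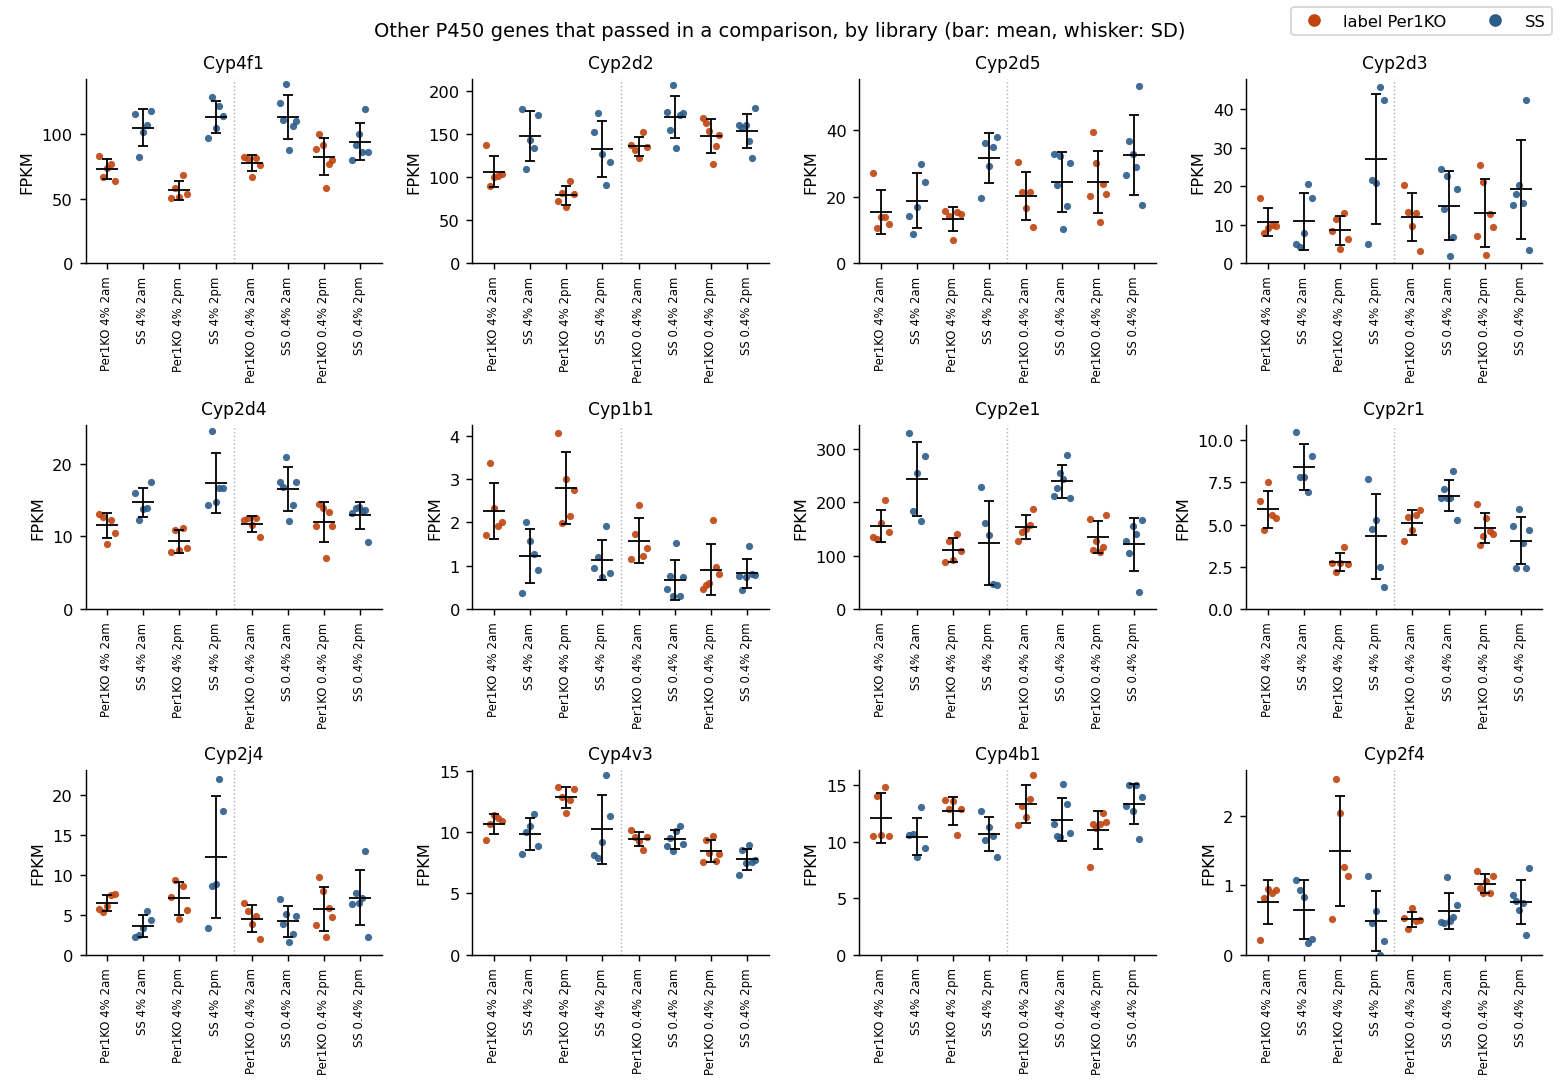
FPKM of the 12 other P450 genes that passed in a comparison, 1 point per library, with orange for libraries labelled Per1KO and blue for SS, the mean as a bar and the SD as a whisker. Groups are given by label, % NaCl and time. In the Cyp4f1 panel the SS high salt 2pm libraries (97.2 to 129 FPKM) lie wholly above the Per1KO libraries (50.5 to 68.2 FPKM). In the Cyp2e1 panel the SS 2am libraries on normal salt lie above all SS 2pm libraries of that diet.

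Cyp2e1, the ethanol and ketone oxidase, rose at 2am in SS cortex on normal salt. It had 208 to 288 FPKM with a median of 235 at 2am, against 31.4 to 167 FPKM with a median of 134 at 2pm. All 2am libraries lay above all 2pm libraries. The means were 239 ± 30.5 FPKM at 2am and 121 ± 48.9 FPKM at 2pm (SD, n = 6 each; log2 difference 1.14 ± 0.27, adjusted p = 0.00483). The call held without any 1 library, SS 2pm replicate 5, the lowest, included. In SS cortex on high salt the values were 330.3, 183, 254, 164 and 285 FPKM at 2am, against 229, 161, 139, 46.4 and 45.1 FPKM at 2pm. They overlapped and missed the threshold (log2 difference 1.20 ± 0.35, adjusted p = 0.0521). It passed without SS 2pm replicate 1 (adjusted p = 0.00726), 2 (0.0348) or 3 (0.0473) or SS 2am replicate 4 (0.0445) and in voom (1.25, adjusted p = 0.0359). Alternatives gave Cyp2e1 adjusted p-values from 0.00726 to 0.391. In Per1KO cortex Cyp2e1 averaged 153 ± 22.2 FPKM at 2am (n = 5) and 134 ± 30.3 FPKM at 2pm (n = 6) on normal salt. On high salt it averaged 155 ± 29.6 FPKM at 2am and 111 ± 22.4 FPKM at 2pm (SD, n = 5 each), and neither difference passed. The label by time interaction on normal salt was -0.93 and did not pass (adjusted p = 0.162).

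Between the labels on normal salt at 2am, Cyp2e1 had 128, 143, 149, 156 and 188 FPKM in Per1KO libraries, all below the 208 to 288 FPKM of SS libraries. The difference did not pass in the pooled fit (log2 difference -0.64 ± 0.28, adjusted p = 0.211). It passed in a fit of these 2 groups (adjusted p = 0.00459) and without the 2 unusual 2pm libraries of that table (adjusted p = 0.00771). Alternatives gave Cyp2e1 adjusted p-values from 0.00459 to 0.346. Its promoter window (GRCr8, chr1:205269717-205269966, plus strand) is shown as that of the gene with the largest time difference among those that passed in SS on normal salt, with capitals for TATAAA.
Cyp2e1: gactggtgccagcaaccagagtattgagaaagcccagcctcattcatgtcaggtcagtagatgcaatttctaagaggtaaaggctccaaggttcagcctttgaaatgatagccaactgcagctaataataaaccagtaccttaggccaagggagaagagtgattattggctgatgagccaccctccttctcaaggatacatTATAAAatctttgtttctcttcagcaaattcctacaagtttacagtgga
The D-box TTATGTAA, bound by the clock output factors Dbp, Tef and Nfil3, was in 0.828% of all windows and in 0 of the 21 P450 windows. The E-box CACGTG was in 5.59% and in 1 (Cyp2j4). A match or its absence describes these 250 bases only.

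Cyp2r1, a vitamin D 25-hydroxylase, rose at 2am in SS cortex on both diets. Normal salt levels were 5.28 to 8.19 FPKM with a median of 6.58 at 2am, against 2.43 to 5.93 FPKM with a median of 4.29 at 2pm (log2 difference 0.65 ± 0.15, adjusted p = 0.00375), overlapping but shifted. The high salt levels were 10.5, 7.84, 7.82, 6.94 and 9.07 FPKM at 2am, against 7.73, 4.77, 5.26, 2.48 and 1.29 FPKM at 2pm. SS 2pm replicate 1 reached the 2am range (log2 difference 0.96 ± 0.25, adjusted p = 0.0307). That call was lost without SS 2pm replicate 4 (0.0874) or 5 (0.063), SS 2am replicate 1 (0.0796), 2 (0.0511), 3 (0.0586) or 5 (0.0645). Without 2pm replicates 4 and 5 together it was lost as well (0.46, adjusted p = 0.188), as it was with no filter (0.0569) and in a fit of the 2 groups alone (0.181). Alternatives gave Cyp2r1 adjusted p-values from 0.00358 to 0.188. In Per1KO cortex on high salt, all 2am libraries (4.66 to 7.53 FPKM) lay above all 2pm libraries (2.22 to 3.66 FPKM), but the difference did not pass (log2 difference 0.86 ± 0.25, adjusted p = 0.114). A fit of the 2 groups alone gave adjusted p = 0.0108. Alternatives gave Cyp2r1 adjusted p-values from 0.0108 to 0.237. Label differences of Cyp2r1 did not pass on high salt (adjusted p = 0.32 at 2pm and 0.28 at 2am) or on normal salt at 2am (0.238). On high salt at 2pm Cyp2r1 passed as lower in Per1KO without SS replicate 5 (-0.61, adjusted p = 0.0269) or replicates 4 and 5 (-0.85, 0.000916). It also passed within the series of SS replicates 1 and 2 (-1.0, 0.0298). Fits of the 2 groups alone passed at 2am (-0.45, 0.0336 on high salt and -0.34, 0.0398 on normal salt).

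Cyp2j4, an epoxygenase of rat intestine and kidney, fell at 2am in SS cortex on high salt, with 2.16, 2.44, 3.34, 5.47 and 4.33 FPKM at 2am, against 3.32, 8.64, 8.90, 22.1 and 18.1 FPKM at 2pm. The 2pm replicates 4 and 5 were the highest (log2 difference -1.36 ± 0.33, adjusted p = 0.0241). Without both it was -0.76 (adjusted p = 0.215). The call was also lost without 2pm replicate 4 (0.0686) or 5 (0.0702) or 2am replicate 1 (0.0662), 2 (0.0558) or 3 (0.053), in voom (0.059) and in a fit of the 2 groups alone (0.164). Alternatives gave Cyp2j4 adjusted p-values from 0.00115 to 0.215.

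Cyp1b1, a low member and an aryl hydrocarbon receptor target that oxidises oestrogens and fatty acids, had 4.07, 1.996, 3.00, 2.15 and 2.75 FPKM in Per1KO libraries on high salt at 2pm, against 0.949, 1.19, 0.750, 1.91 and 0.835 FPKM in SS libraries. Every Per1KO library was higher (log2 difference 0.83 ± 0.20, adjusted p = 0.00542). The call held without any 1 library but not within either series alone (0.93 and 0.71, adjusted p = 0.0574 and 0.337). The label by diet interaction at 2pm passed (log2 difference 0.80 ± 0.28, adjusted p = 0.0333). It was lost without any 1 of Per1KO normal salt replicates 1 to 3, SS normal salt replicate 4, Per1KO high salt replicates 1 and 3 or SS high salt replicates 3 and 5 (adjusted p 0.0502 to 0.0739) and with a pseudocount of 0.1 FPKM (0.0694). At 2am on high salt Cyp1b1 averaged 2.27 ± 0.655 FPKM in Per1KO and 1.23 ± 0.629 FPKM in SS (SD, n = 5 each; log2 difference 0.58 ± 0.20, adjusted p = 0.0789). It passed without SS replicate 2 (adjusted p = 0.0353) and in voom (1.24, adjusted p = 0.0269). Alternatives gave Cyp1b1 adjusted p-values from 0.0269 to 0.238. Cyp1a1, the classic target of the same receptor, varied up to 128-fold within a group and passed in no comparison.

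Cyp2f4, a lung naphthalene oxidase, had 0.514, 2.54, 2.05, 1.27 and 1.14 FPKM in Per1KO libraries on high salt at 2pm, against 1.13, 0.453, 0.627, 0 and 0.199 FPKM in SS libraries (log2 difference 0.74 ± 0.25, adjusted p = 0.0292). The ranges overlapped. The call was lost without Per1KO replicate 2 (0.0835) or 3 (0.0794) or SS replicate 4 (0.0692) or 5 (0.0633) or both of these SS libraries (0.48, adjusted p = 0.175). Alternatives gave Cyp2f4 adjusted p-values from 0.0112 to 0.41. Cyp2f4 reached 1 FPKM in 6 high salt libraries, 4 of them of this Per1KO group, and would have missed the 5-library filter without that group, so its test was not independent of the filter. The same holds on normal salt, where 3 of its 5 such libraries were Per1KO at 2pm. In Per1KO cortex on normal salt it had 0.510 ± 0.110 FPKM at 2am (SD, n = 5) and 1.03 ± 0.132 FPKM at 2pm (SD, n = 6; log2 difference -0.43 ± 0.12, adjusted p = 0.0479). That call was lost in all 11 fits without 1 library (adjusted p 0.0579 to 0.137). Cyp3a9, a steroid hydroxylase named here after its values were seen, had 0.259, 0.905, 2.12, 1.78 and 1.04 FPKM in Per1KO libraries on high salt at 2am, against 0.0930, 0.312, 0.0777, 0.0950 and 0.209 FPKM in SS libraries. It missed the threshold (log2 difference 0.88 ± 0.28, adjusted p = 0.0547). It passed without Per1KO replicate 1 (adjusted p = 0.0173), in a fit of the 2 groups alone (0.027) and with a pseudocount of 0.1 FPKM (2.20, adjusted p = 0.0368). Alternatives gave Cyp3a9 adjusted p-values from 0.0173 to 0.147.

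On normal salt at 2am Cyp1b1 had 1.14, 1.73, 2.40, 1.21 and 1.42 FPKM in Per1KO libraries, against 0.296 to 1.53 FPKM with a median of 0.594 in SS libraries. The ranges overlapped and the difference did not pass (log2 difference 0.64 ± 0.19, adjusted p = 0.0603). Of the 8 normal salt libraries with 1 FPKM or more, 5 were of this Per1KO group, without which Cyp1b1 would have missed the filter. It passed, among other settings, without SS replicate 4 (adjusted p = 0.0156), in voom (1.48, adjusted p = 0.0192), in a fit of the 2 groups alone (0.0331) and without the 2 unusual 2pm libraries of that table (0.047). Alternatives gave Cyp1b1 adjusted p-values from 0.0156 to 0.184.

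Several members above the filter passed in no comparison in the limma fit on log2(FPKM + 1) with all libraries. Cyp2t1 had group means of 6.87 to 8.39 FPKM, and its adjusted p-values ranged from 0.084 to 0.893 over all comparisons. For time in SS on normal salt it passed in voom (0.0215) and without SS 2am replicate 3 (0.0491). Cyp2u1, a long-chain fatty acid hydroxylase, had group means of 3.05 to 3.58 FPKM (adjusted p 0.194 to 0.988). Cyp2s1, a retinoid and eicosanoid oxidase of epithelia, had means of 5.04 to 8.12 FPKM (adjusted p 0.0642 to 0.992). Its lowest p was for time in SS on high salt, with 4.06, 4.77, 5.47, 6.79 and 4.30 FPKM at 2am, against 5.33, 6.80, 7.04, 11.4 and 10.1 FPKM at 2pm, and the ranges overlapped. It passed there without SS 2pm replicate 1 (0.0141) or SS 2am replicate 4 (0.0404), and on normal salt without SS 2pm replicate 6 (0.00891). Cyp2j10 stayed at means of 1.37 to 1.89 FPKM (adjusted p 0.366 to 0.969), and its label by diet interaction at 2pm passed without SS high salt replicates 4 and 5 (0.0481). Below the filter, Cyp1a2 reached at most 0.0905 FPKM in any library, Cyp2b2 0.187 FPKM, Cyp3a18 0.329 FPKM and Cyp4f6 0.366 FPKM. Cyp4x1, which lies on chromosome 5 like the Cyp4a genes, reached 0.325 FPKM.

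The label by diet interaction at 2pm passed for 5 of 24 P450 genes (Cyp2d2, Cyp4f1, Cyp2d4, Cyp4b1 and Cyp1b1), against 23.1% of all genes. Of these 3 were negative (11.8% of all genes) and 2 positive (11.3%). Cyp2r1 did not pass (adjusted p = 0.14), but did so without SS high salt replicate 5 (-0.85, adjusted p = 0.0124) or replicates 4 and 5 (-1.09, 0.000825). At 2am the interaction passed for 0 of 24, and for 0 of all 13260 genes, with 3 of the 24 and 763 of all genes at an unadjusted p below 0.05. Time by diet interactions passed for 0 of 24 genes in Per1KO (3.31% of all genes, 1.64% positive and 1.67% negative; 8 of the 24 and 2738 of all 13260 genes at an unadjusted p below 0.05) and for 0 of 24 in SS (0.0754% of all genes, 0.0226% positive and 0.0528% negative; 4 of the 24 and 1863 of all genes at an unadjusted p below 0.05). Levels on the 2 diets stand in separately made tables, so diet and table cannot be told apart and no test was made. In Per1KO cortex at 2pm all high salt libraries lay below all normal salt libraries for Cyp2c23, Cyp2d2 and Cyp2r1 (3 of 24, with 11.9% of all genes below). They lay above them for Cyp4v3 (1 of 24, with 11.2% above). Cyp2c23 averaged 619 ± 89.8 FPKM on high salt (SD, n = 5) and 1009.5 ± 221 FPKM on normal salt (SD, n = 6). At 2am in Per1KO cortex Cyp4a8 lay above (1 of 24, with 10.9% above and 10.1% below). In SS cortex Cyp2d4 lay above at 2pm (1 of 24, with 3.98% above and 2.67% below), and 0 of 24 were apart at 2am (3.54% above and 2.6% below).

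Within groups, some P450 genes shared their extreme libraries and others were at the opposite ends. The ratio of the highest to the lowest library of a group had a median over the 8 groups of 1.26 for Cyp2t1 and Cyp4v3 and 1.38 for Cyp4a2, against 7.95 for Cyp2d3, 14.9 for Cyp2c11 and 34.6 for Cyp1a1. The library with the most Cyp2c11 was also the highest of its group in Cyp2d5 in 7 of 8 groups. It was so in Cyp2d3 and Cyp1a1 in 6 groups, and in Cyp2c13, Cyp2j4, Cyp4f1, Cyp2s1 and Cyp2j10 in 5. At the low end the same library was lowest in Cyp2d5 and Cyp2d3 in 8 of 8 groups and in Cyp1a1 and Cyp2j4 in 7. For Cyp2c13, Cyp2s1 and Cyp2d4 this held in 6 groups, and for Cyp4f1 in 4. The library highest in Cyp2c11 was the lowest in Cyp4a1 in 6 groups, in Cyp2c23 in 5 and in Cyp2e1, Cyp2r1, Cyp4a2 and Cyp2f4 in 4. Cyp2e1 and Cyp2c23 shared their highest library in 7 groups and their lowest in 6. Some marker sums moved with the same libraries and others did not. The summed thick ascending limb markers were highest in the Cyp2c11-highest library in 6 groups and lowest in the Cyp2c11-lowest in 7. Proximal tubule markers did so in 5 and 6 groups, and perirenal fat markers in 3 and 5. Endothelial markers did so in 4 and 0 groups, and distal and collecting duct markers in 3 and 0. For tubular injury markers it was 1 and 1, for liver markers 0 and 2, and for adrenal markers 0 and 0. Macrophage markers were highest in the Cyp2c11-lowest library in 5 groups. The part of the markers in the pattern was not tested.

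**Figure D5:**
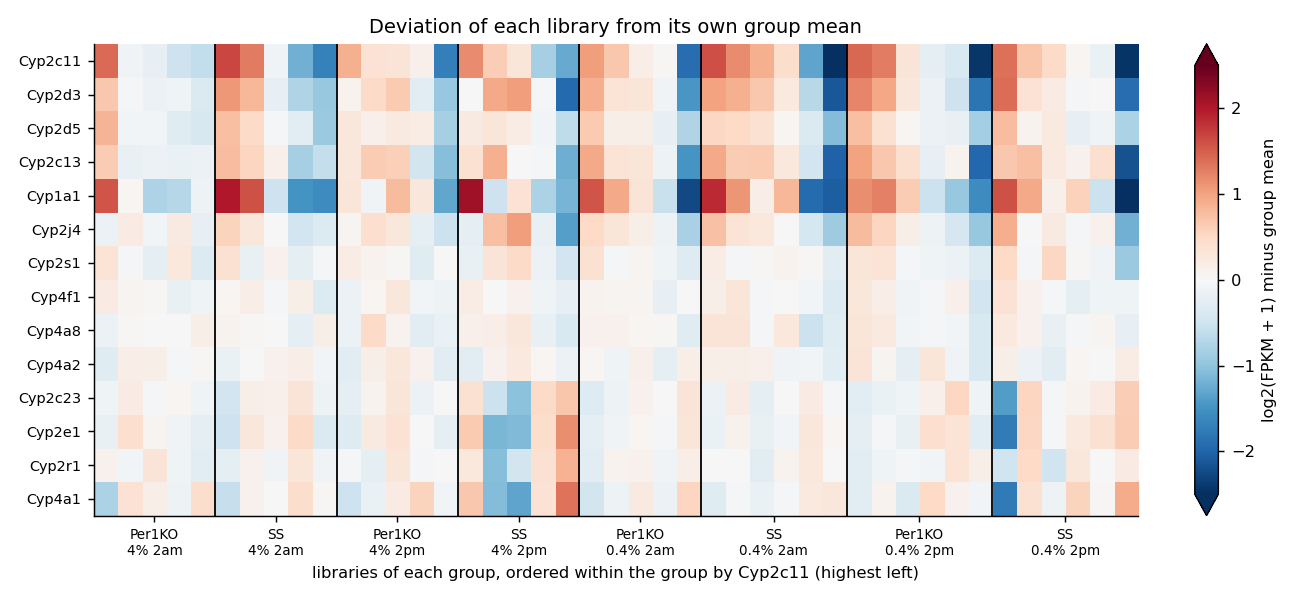
Deviation of each library from its own group mean, as log2(FPKM + 1), for 14 P450 genes (down the page), with the libraries of each group ordered by Cyp2c11, highest on the left. Red is above and blue below the mean, and black lines part the groups. Cyp2c11, Cyp2d3, Cyp2d5, Cyp2c13, Cyp1a1 and Cyp2j4 shade from red to blue together, and Cyp4a1 tends to run the other way.

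Genes that serve the P450 system were set beside these results, as lists chosen with earlier results of these data known. Counts are given for the comparison with the most calls, Per1KO minus SS on high salt at 2pm. There 29.8% of all genes passed, 14.2% higher and 15.7% lower. Of 16 genes of electron supply and haem metabolism, 10 were lower and 0 higher in Per1KO, with a median log2 difference of -0.36. Pgrmc1, a haem-binding partner of P450s, averaged 191 ± 13.4 FPKM in Per1KO and 264 ± 27.8 FPKM in SS (SD, n = 5 each; log2 difference -0.46 ± 0.078, adjusted p = 0.000375). Cytochrome b5 (Cyb5a), an electron donor, averaged 163 ± 17.8 FPKM in Per1KO and 227 ± 6.46 FPKM in SS (log2 difference -0.48 ± 0.085, adjusted p = 0.000554). Of the same 16 genes, 5 were lower on high salt at 2am, where 4.64% of all genes were lower, and 2 on normal salt at 2am, where 0.99% were. Among the 18 tested conjugation and other detoxification enzymes 6 were lower and 1 higher. The flavin monooxygenase Fmo4 was lower (51.0 ± 15.7 FPKM in Per1KO and 120.0 ± 29.2 FPKM in SS; log2 difference -1.24 ± 0.21, adjusted p = 0.000415) and the glutathione transferase Gsta4 (log2 difference -0.65 ± 0.11, adjusted p = 0.000311).

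Of 15 tested regulators of P450 transcription, 2 were lower in that comparison, where 15.7% of all genes were lower and 14.2% higher. The 2 included Hnf4a, a nuclear receptor of hepatic and proximal tubule genes, with 107 ± 15.6 FPKM in Per1KO and 175 ± 41.9 FPKM in SS (SD, n = 5 each; log2 difference -0.68 ± 0.15, adjusted p = 0.00233). Among 13 tested genes of arachidonate release and other oxygenases 3 were higher and 3 lower, among them the phospholipase Pla2g6 (log2 difference -0.59 ± 0.083, adjusted p = 8.90e-05) and the prostaglandin dehydrogenase Hpgd (log2 difference -0.89 ± 0.17, adjusted p = 0.000931). Of 8 epoxide hydrolases and eicosanoid receptors 2 were higher, the prostacyclin receptor Ptgir (log2 difference 0.44 ± 0.12, adjusted p = 0.00997) and Ptger4 (log2 difference 0.52 ± 0.17, adjusted p = 0.0284). PPAR alpha targets divided into 3 higher and 3 lower of 19, and 1 of 3 aryl hydrocarbon receptor targets other than Cyp1 genes was lower, the glutathione transferase Gsta2 (log2 difference -1.08 ± 0.23, adjusted p = 0.00207).

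In SS cortex on normal salt between 2am and 2pm, 26.3% of all genes passed, 14.3% higher and 12% lower at 2am. Of 19 PPAR alpha targets 5 rose and 0 fell. The lowest p-value was that of the peroxisomal β-oxidation gene Ehhadh (83.1 ± 7.21 FPKM at 2am and 43.8 ± 8.16 FPKM at 2pm; SD, n = 6 each; log2 difference 0.93 ± 0.13, adjusted p = 4.74e-05). Among the 15 transcription regulators 4 rose and 2 fell. Those that fell were the D-box activators Dbp (log2 difference -3.04 ± 0.13, adjusted p = 2.53e-13) and Tef (log2 difference -0.81 ± 0.085, adjusted p = 1.21e-06). The D-box repressor Nfil3 rose (log2 difference 1.54 ± 0.13, adjusted p = 3.18e-08).

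Cell type markers were counted in some of the same comparisons. Proximal tubule markers on high salt at 2pm summed to 3004 to 5466 FPKM in Per1KO libraries, against 9562 to 14420.4 FPKM in SS libraries, without overlap. In limma 7 of 16 of these markers were lower and 0 higher, where 15.7% of all genes were lower and 14.2% higher. Tubular injury markers summed to 3612 to 7941 FPKM in Per1KO libraries, against 1000.2 to 6092 FPKM in SS libraries, with 3 of 5 higher. Of the macrophage markers 5 of 6 were higher, with sums of 1037 to 1474 FPKM in Per1KO libraries, against 764 to 1167 FPKM in SS libraries. At 2am on either diet, 4 of 5 injury markers and 4 of 6 macrophage markers were higher in Per1KO, and 1 of 16 proximal tubule markers was lower in each. Of all genes at 2am, 4.3% were higher and 4.64% lower on high salt, and 3.19% higher and 0.99% lower on normal salt. In SS cortex on normal salt 4 of 16 proximal tubule markers rose at 2am, while 3 of 5 injury and 4 of 6 macrophage markers fell. Of all genes, 14.3% rose and 12% fell there. In bulk cortex, fewer cells of a type and less RNA per cell cannot be told apart, and the part of these markers in the P450 differences was not tested.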

How the data were processed

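Poly-A mRNA of kidney cortex was sequenced in 43 libraries of 8 groups, and 1 FPKM table per diet was deposited. The authors deposited FPKM values; per the submitters' processing notes, they used featureCounts 1.5.0-p3 and StringTie 1.3.3b, with HISAT2 2.0.5 and fastp also named. The genome build and the counting of reads shared by paralogs are not given in the sources used here. Groups and replicate numbers came from the sample labels. Genes with 1 FPKM or more in 5 or more libraries (13436 genes on normal salt, 14899 on high salt) were fitted per table as 4 group means on log2(FPKM + 1) with limma 3.58.1 in R 4.3.3 (trended empirical Bayes), with Benjamini-Hochberg adjustment over all genes; diet interactions used 13260 shared genes. The threshold was an adjusted p of 0.05. All values were whole multiples of 1 fragment within 0.01, so voom on recovered fragments was an alternative. In voom the library size was the total of recovered fragments, so its differences also hold the change from the FPKM scaling. The code was tested on simulated data.

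The members and gene lists were chosen with earlier results of these data known. Genes named with values are the Cyp4a and Cyp2c genes above the filter, the 6 most abundant members, per comparison up to 4 of the largest rises and 4 of the largest falls among members that passed, and of each partner list up to 3 genes with the smallest p; any other member with values was named after its values were seen. Some genes of the partner lists are not reported here. Alternatives were another pseudocount, no filter, a replicate block, voom, the compared groups alone, the library series as a term, and each library left out; fits within 1 library series and without the unusual libraries were chosen after seeing the data. Replicate numbers did not pair the libraries. Fragment counts per library limit precision by counting error only. Promoter sequences are from RefSeq, assembly GRCr8, and 21 of the 25 genes above the filter matched an entry by symbol; motifs were searched on both strands of the 250 bases before the start, and no motif searched contains another.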

Additional observations from a re-analysis of the deposited data

Results flagged for a closer look

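For each of 200 combinations of a P450 gene above the filter and a group, the library at either end was compared with the rest of its group by Dixon's ratio, and 16 stood apart; chance alone sets about 1 in 20 apart. Of these, 6 belonged to Per1KO high salt 2am replicate 1, which was the highest of its group in Cyp2c13 (67.8 FPKM), Cyp2d5 (27.0 FPKM), Cyp2d3 (17.0 FPKM), Cyp2c11 (14.3 FPKM) and Cyp1a1 (9.94 FPKM) and the lowest in Cyp2f4 (0.205 FPKM). Per1KO high salt 2pm replicate 3 was the lowest in Cyp2d5 (6.81 FPKM), and replicate 4 of that group the lowest in Cyp4b1 (10.6 FPKM). SS high salt 2pm replicate 2 was the highest in Cyp2d4 (24.6 FPKM) and Cyp1a1 (17.8 FPKM).

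On normal salt, the ω-hydroxylase gene Cyp4a8 was lowest in Per1KO 2am replicate 5 (165 FPKM), Cyp4b1 was lowest in Per1KO 2pm replicate 1 (7.77 FPKM), and Cyp2d4 was lowest in SS 2pm replicate 6 (9.23 FPKM). Cyp1b1 was highest in Per1KO 2pm replicate 4 (2.06 FPKM), SS 2am replicate 4 (1.53 FPKM) and SS 2pm replicate 4 (1.46 FPKM).

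A difference between contrasts passed in limma for 6 genes. The 2am minus 2pm difference of the second Cyp4a2 locus on normal salt was smaller in Per1KO than in SS cortex (interaction -0.87, adjusted p = 0.038). The Per1KO minus SS difference at 2pm was more negative on high salt than on normal salt for Cyp4f1 (-0.80, adjusted p = 0.00105), Cyp2d4 (-0.70, adjusted p = 0.012) and Cyp2d2 (-0.66, adjusted p = 0.013), and more positive for Cyp1b1 (0.80, adjusted p = 0.0333) and Cyp4b1 (0.49, adjusted p = 0.0286).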

How the results depend on the processing

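Of 1284 gene-level alternatives, 1103 kept the direction and the side of the threshold, 56 moved past it, 122 fell short of it and 3 changed sign; the causes were not tested. The sign changes were on high salt at 2pm: Cyp2c23 (0.07 within the series of Per1KO replicates 4 and 5 and SS replicates 3 to 5) and Cyp4a1 (-0.62 within the other series, -0.16 without SS replicates 4 and 5). Fitting the compared groups alone moved the count of P450 genes that passed to 8 for label on normal salt at 2am, 6 on high salt at 2am and 6 (of 9) on high salt at 2pm, where Cyp2d3, Cyp2f4 and Cyp4v3 were lost. A pseudocount of 0.1 FPKM or no filter gave 7 there, without Cyp2d3 and Cyp4v3. For time, fitting the compared groups alone gave 3 in SS on normal salt, 2 in Per1KO on high salt and 0 in SS on high salt. Voom gave 2 for label on normal salt at 2am and 4 on high salt at 2am. A pseudocount of 0.1 FPKM gave 2 for label on high salt at 2am and 0 for time in Per1KO on normal salt. No filter gave 0 for that time comparison, 0 for the label by time interaction on normal salt and 1 for time in SS on high salt. Without the unusual normal salt libraries 4 passed for label at 2am. Without SS high salt 2pm replicates 4 and 5, 11 passed for label at 2pm, 0 for time in SS and 8 for the label by diet interaction at 2pm, with 4972 (4445) of all genes for label and 4137 (3059) for label by diet. For label on high salt at 2pm, the series of Per1KO replicates 4 and 5 alone gave 0 and the other 7.

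Replicate numbers did not pair the libraries: deviations of same-numbered libraries had a mean correlation of 0.019 over 33 pairs on normal salt and 0.032 over 30 on high salt. A fit with the replicate block gave 2 P450 genes for label on normal salt at 2am, 3 for label on high salt at 2am, 10 at 2pm and 0 for time in Per1KO on normal salt. It added Cyp1b1 on normal salt at 2am (adjusted p = 0.0413), Cyp4a8 (0.0143) and Cyp3a9 (0.0296) on high salt at 2am and Cyp4a8 at 2pm (0.0479), and lost Cyp2f4 for time (0.0812).

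Leaving out 1 library at a time, the counts ran from 0 to 0 for label on normal salt at 2pm, 0 to 5 at 2am, 6 to 12 on high salt at 2pm and 1 to 5 at 2am. For time they ran from 0 to 1 in Per1KO and 4 to 8 in SS on normal salt, and from 0 to 1 in Per1KO and 0 to 9 in SS on high salt. The label by time interaction gave 0 to 2 on either diet, label by diet 3 to 6 at 2pm and 0 to 0 at 2am, and time by diet 0 to 1 in Per1KO and 0 to 0 in SS. Counts over all genes in these fits are not reported here, so the ranges are not read as particular to P450 genes.

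Over all genes, fits of the compared groups alone gave 2357 calls for label on normal salt at 2am (561 in the pooled fit), 3 (50) at 2pm, 2592 (4445) on high salt at 2pm and 2333 (1333) at 2am. For time they gave 798 (418) in Per1KO and 1778 (3534) in SS on normal salt, and 648 (39) in Per1KO and 45 (811) in SS on high salt. Voom gave 1458 for label on normal salt at 2am, 2049 on high salt at 2am, 115 for time in Per1KO on high salt and 799 (378) for label by time on normal salt. With the series as a term 2143 genes passed on high salt at 2pm, against 2348 and 1 within the series. Without the unusual libraries 1021 passed for label on normal salt at 2am and 171 for time in SS on high salt. With no filter 14 passed for time in Per1KO on high salt and 181 for label by time on normal salt, and with the replicate block 272 for time in Per1KO on normal salt, 5 on high salt and 657 for label by time on normal salt. Members that missed the expression filter were tested only in the limma fit with no filter. There Cyp4f17 passed for time in SS on normal salt (log2 difference -0.19, adjusted p = 0.0384).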
